A study of Rattus norvegicus with 24 samples.

Results

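Blood clotting in the lung is started and held in check by a small set of genes, and 9 of them were chosen here by gene symbol from the lung arrays: F3, Tfpi, Thbd, Procr, Plat, Plau, Plaur, Vwf and Thbs1. Of these 9 genes, 8 were matched by symbol to a feature on the array, among 19239 features in all. No feature was matched to Thbs1, which was not analysed here, and 2647 features had no single gene symbol. The arrays, of an Affymetrix design, measured RNA of the right lung of 24 rats (Wistar, male, adult), and every rat had its own array. There were 4 groups of 6 rats: brain damage with high tidal volume and low positive end-expiratory pressure, or PEEP (BD HVT/LPEEP, labelled HT), brain damage with low tidal volume and open lung PEEP (BD LVT/OLPEEP, labelled best PEEP), and these ventilation settings with no brain damage (NBD HVT/LPEEP and NBD LVT/OLPEEP). Tidal volume and PEEP were changed together. The respiratory rate was also lower under HVT/LPEEP, and only LVT/OLPEEP rats had a recruitment maneuver, a held airway pressure. The parts of these settings in any difference between the ventilation groups cannot be told apart. In BD rats a balloon catheter was inflated in the epidural space through a burr hole, and NBD rats had no such hole, so brain damage and its surgery cannot be told apart. All rats were anaesthetized with ketamine and xylazine, and all were ventilated, for a planned 6 hours, so no group shows an unventilated lung. Heparin, an anticoagulant, was given before the lungs were taken. Of the 6 BD HVT/LPEEP rats, 2 were non-survivors, and the labels do not say which.

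Tissue factor, the product of F3, starts clotting when it meets factor VII of the blood, and tissue factor pathway inhibitor, the product of Tfpi, blocks that step. Thrombomodulin (Thbd) binds thrombin on the endothelial surface and turns it towards protein C, which the endothelial protein C receptor (Procr) presents for activation, and activated protein C slows further clotting. Clots are dissolved by plasmin, which is made from plasminogen by the tissue-type activator (Plat) and by urokinase (Plau), and urokinase works on the cell surface when bound to its receptor (Plaur). Von Willebrand factor (Vwf) is stored in endothelial cells and platelets and ties platelets to the injured vessel wall. In injured lungs, clotting in the air spaces is known to rise while the dissolving of fibrin is held back.

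Of the 9 genes, 5 had an entry in the RefSeq promoter table (rat build GRCr8). Shown here are the 250 bases before the start of the 3 members with an entry that passed a test, Plaur, Procr and Plau. Capitals mark matches to TGANTCA, the letters bound by the AP-1 factors of the Fos and Jun families, searched on both strands.
Plaur, chr1:89181113-89181362, plus strand: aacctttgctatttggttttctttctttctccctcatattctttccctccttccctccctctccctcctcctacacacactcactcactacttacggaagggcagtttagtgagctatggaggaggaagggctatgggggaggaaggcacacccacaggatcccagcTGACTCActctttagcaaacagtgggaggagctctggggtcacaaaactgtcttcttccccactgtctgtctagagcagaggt
Procr, chr3:164714477-164714726, plus strand: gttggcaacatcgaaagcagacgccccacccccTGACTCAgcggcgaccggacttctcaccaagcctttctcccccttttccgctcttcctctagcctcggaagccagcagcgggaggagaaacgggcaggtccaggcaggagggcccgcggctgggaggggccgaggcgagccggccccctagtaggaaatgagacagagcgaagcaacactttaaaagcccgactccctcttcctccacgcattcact
Plau, chr15:3511988-3512237, minus strand: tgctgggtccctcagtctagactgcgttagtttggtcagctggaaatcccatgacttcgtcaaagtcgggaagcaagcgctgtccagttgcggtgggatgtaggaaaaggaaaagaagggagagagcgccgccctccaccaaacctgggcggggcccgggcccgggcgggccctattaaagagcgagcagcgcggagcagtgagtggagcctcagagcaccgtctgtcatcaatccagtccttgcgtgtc
The match began 83 bases before the start in Plaur and 217 bases before it in Procr, and the windows of Plau, Tfpi and Thbs1 held none. Of 33469 promoter entries of the same length, 6.34% held such a match. The letters CACCC, which Krueppel-like factors bind, were found on either strand at 101 bases before the start in Plaur and at 224 bases in Procr, and 49.2% of all entries held them. A match of letters is a description and shows no binding.

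In BD rats, F3, Plau, Plaur and Procr were higher under HVT/LPEEP, by 1.48-fold to 1.85-fold over LVT/OLPEEP, and none of the 8 genes passed as lower, with differences of -0.24 for Vwf and -0.08 for Thbd. Values are log2 array values, normalized by the authors so that all arrays have the same distribution, which hides any shift shared by all genes, and differences are on that log2 scale. A gene passed when its limma p-value, after Benjamini-Hochberg adjustment across the 19239 features, was under 0.05. The 4 passing genes stand against 2.85% of all features higher and 2.82% lower in this comparison, and the median difference of the 8 genes was 0.49, against -0.01 over all features. In NBD, none of the 8 genes passed, as 0% of all features were called in either direction. All 8 differences were above 0 there, as were those of 10780 of all 19239 features. The median of the 8 was 0.32 against 0.02 over all features. An unadjusted p under 0.05 was found for 4 of 8 genes and for 3127 of all 19239 features.

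Under HVT/LPEEP, Procr and Plaur were higher in BD than in NBD and Vwf was lower. Of all features, 5.9% were higher and 8.5% were lower in this comparison. Under LVT/OLPEEP none of the 8 genes passed between BD and NBD, where 0.208% of all features were higher and 0.53% were lower, and 2 of 8 genes had an unadjusted p under 0.05, as did 2230 of all 19239 features. The change with ventilation itself was not shown to differ between BD and NBD for any of the 8 genes. For that difference 0% of all features passed as higher and 0.0104% as lower, and 4 of 8 genes had an unadjusted p under 0.05, as did 2629 of all 19239 features. With Holm's correction, which the study's methods name, none of these genes passed in any comparison. In whole tissue, fewer cells of a type and less RNA per cell cannot be told apart.

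**Figure D1:**
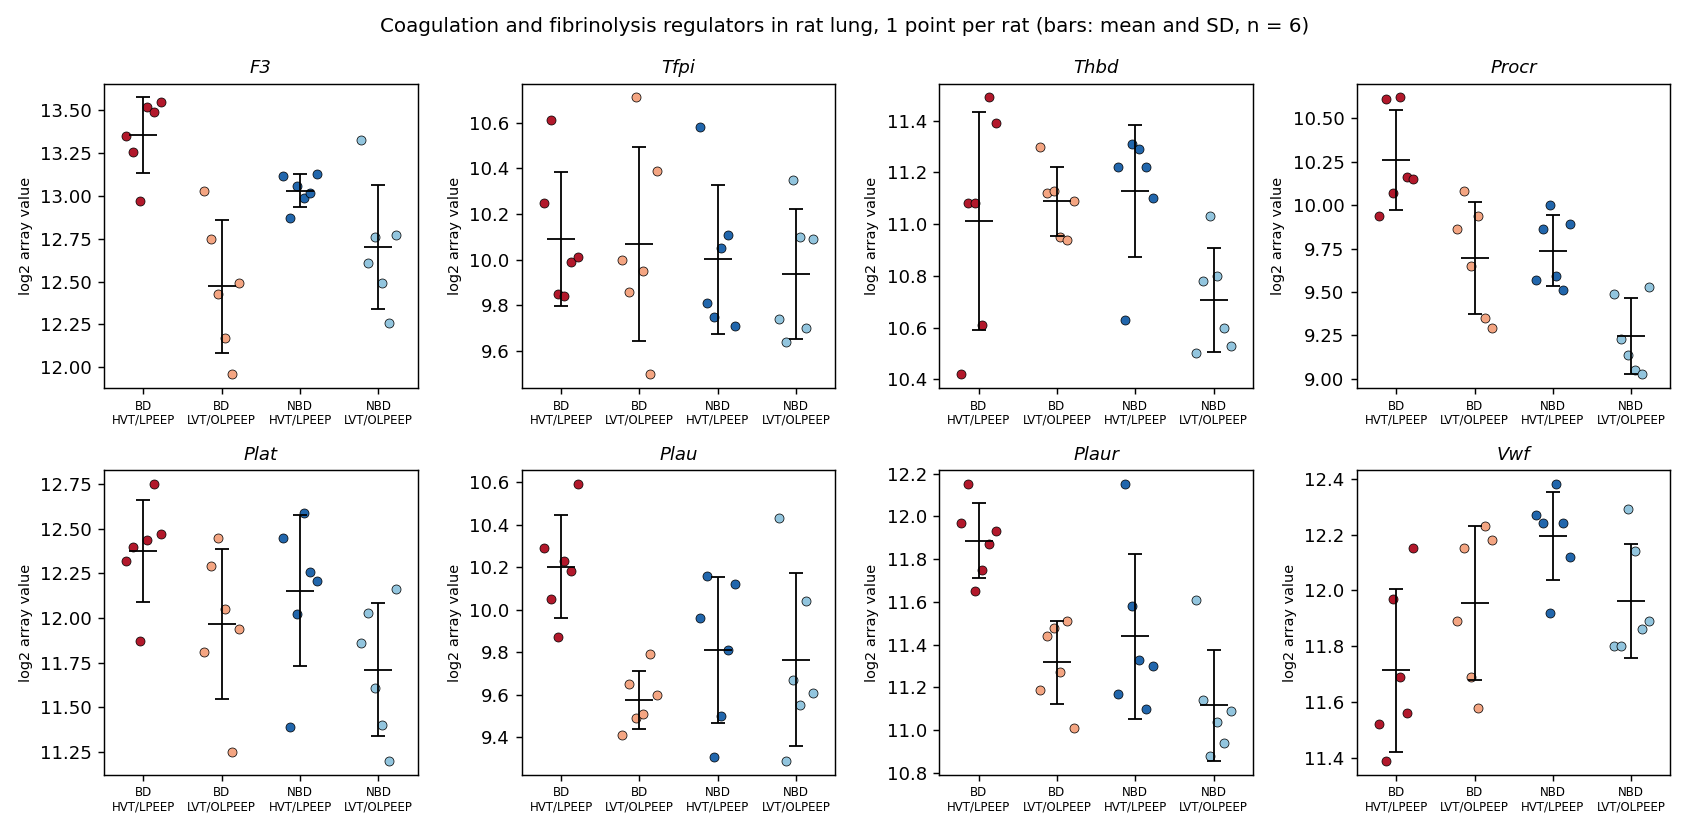
Log2 array value (vertical axis) of the 8 genes in each rat of the 4 groups (horizontal axis), with bars for the mean and SD of 6 rats. For Plau and Plaur, all 6 BD HVT/LPEEP rats lie above all 6 BD LVT/OLPEEP rats, and the Tfpi groups overlap throughout.

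F3 (feature 25584_at), the initiator of clotting, was highest in BD HVT/LPEEP. Its log2 values there ranged from 12.97 to 13.55 with a median of 13.42, and from 11.96 to 13.03 with a median of 12.46 in BD LVT/OLPEEP. In BD HVT/LPEEP, 5 of 6 rats exceeded all of BD LVT/OLPEEP, and the exception was replicate 24 at 12.97, which BD LVT/OLPEEP replicate 7 exceeded at 13.03. The difference was 0.89 (SE 0.16, 95% interval 0.56 to 1.22), a 1.85-fold higher value (limma, adjusted p = 0.0037), and an exact permutation test of the means gave p = 0.00433, two-sided and not adjusted. This call held without each single rat, with the adjusted p between 0.00123 and 0.012. It also held when any 2 of the BD HVT/LPEEP rats were left out as possible non-survivors (15 pairs), with the adjusted p between 0.00457 and 0.0303.

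In NBD rats the ventilation groups overlapped in F3. Values ranged from 12.87 to 13.13 in NBD HVT/LPEEP, with a median of 13.04, and from 12.26 to 13.33 in NBD LVT/OLPEEP, with a median of 12.69. The highest NBD LVT/OLPEEP value, 13.33 in replicate 5, lay above every NBD HVT/LPEEP rat, and the difference of 0.33 did not pass (SE 0.16, limma, adjusted p = 0.313). Under HVT/LPEEP, BD exceeded NBD by 0.33, which did not pass either (adjusted p = 0.187), although 5 of 6 BD rats lay above all NBD rats (exact permutation test, p = 0.0152, not adjusted). In a fit of only the 12 arrays compared, that difference passed (limma, adjusted p = 0.0447). From high to low, the group means were 13.36 (BD HVT/LPEEP), 13.03 (NBD HVT/LPEEP), 12.70 (NBD LVT/OLPEEP) and 12.47 (BD LVT/OLPEEP). Of the 4 comparisons of 2 groups, F3 passed in that of BD HVT/LPEEP with BD LVT/OLPEEP alone. The BD difference minus the NBD one was 0.56 (95% interval 0.09 to 1.03), which did not pass (limma, adjusted p = 0.285).

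Tfpi (feature 29436_at), the inhibitor of tissue factor, had nearly the same mean in all groups. It ranged from 9.84 to 10.61 in BD HVT/LPEEP and from 9.50 to 10.71 in BD LVT/OLPEEP, and NBD rats lay between 9.71 and 10.58 in HVT/LPEEP and between 9.64 and 10.35 in LVT/OLPEEP. These ranges overlapped in every comparison, and the 4 group means lay between 9.93 and 10.09. The ventilation difference was 0.02 in BD (95% interval -0.36 to 0.41, limma, adjusted p = 0.963) and 0.07 in NBD (95% interval -0.32 to 0.45, adjusted p = 0.889), so that moderate differences either way lie within the error.

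Procr (feature 362248_at), the receptor that presents protein C, was higher under HVT/LPEEP than under LVT/OLPEEP in BD, and with brain damage under HVT/LPEEP. In BD HVT/LPEEP it ranged from 9.94 to 10.62 with a median of 10.15, against 9.29 to 10.08 with a median of 9.75 in BD LVT/OLPEEP. NBD HVT/LPEEP rats ranged from 9.51 to 10.00 with a median of 9.73, against 9.03 to 9.53 with a median of 9.19 in NBD LVT/OLPEEP. Within BD, 4 of 6 HVT/LPEEP rats lay above every LVT/OLPEEP rat, and within NBD 5 of 6 did. The BD difference was 0.56 (SE 0.15, 95% interval 0.26 to 0.86, limma, adjusted p = 0.0247). The NBD difference was of similar size at 0.49 (SE 0.15, 95% interval 0.19 to 0.79) and did not pass over all features (limma, adjusted p = 0.253), while the exact permutation test for this gene alone gave p = 0.00433. The BD difference minus the NBD one was 0.07 (95% interval -0.35 to 0.50, limma, adjusted p = 0.906).

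With brain damage, Procr was higher by 0.52 under HVT/LPEEP (SE 0.15, limma, adjusted p = 0.0189), where 5 of 6 BD rats lay above every NBD rat. Under LVT/OLPEEP the difference was 0.45 (SE 0.15) and did not pass (limma, adjusted p = 0.181), with 4 of 6 BD rats above every NBD rat, and with array weights it passed (adjusted p = 0.0315). The order of the means was BD HVT/LPEEP (10.26), NBD HVT/LPEEP (9.74), BD LVT/OLPEEP (9.69) and NBD LVT/OLPEEP (9.25), and the middle pair lay 0.04 apart, below the pooled SD of 0.26. The BD ventilation call was lost without BD HVT/LPEEP replicate 26 (adjusted p = 0.0601) or 22 (0.0632), without BD LVT/OLPEEP replicate 20 (0.069) or 18 (0.0674), and in a fit of only the 12 arrays compared (0.0668). The call between BD and NBD under HVT/LPEEP was lost without BD HVT/LPEEP replicate 26 (adjusted p = 0.0524). With 2 BD HVT/LPEEP rats left out, the first of these calls held in 6 of the 15 pairs and the other in 8.

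Thbd (feature 83580_at), the thrombin receptor of the same pathway, had its lowest mean in NBD LVT/OLPEEP and passed in no comparison. It ranged from 10.42 to 11.49 in BD HVT/LPEEP with a median of 11.08, from 10.94 to 11.30 in BD LVT/OLPEEP with a median of 11.11, from 10.63 to 11.31 in NBD HVT/LPEEP with a median of 11.22 and from 10.50 to 11.03 in NBD LVT/OLPEEP with a median of 10.69. The spread was widest in BD HVT/LPEEP, where 2 rats lay above all BD LVT/OLPEEP rats and 2 lay below them. In NBD the HVT/LPEEP mean was 0.42 above the LVT/OLPEEP mean (SE 0.15, limma, adjusted p = 0.261), and the exact permutation test gave p = 0.013. Under LVT/OLPEEP the BD mean was 0.38 above the NBD mean (SE 0.15, limma, adjusted p = 0.304), and the exact permutation test gave p = 0.00649. The BD ventilation difference was -0.08 (95% interval -0.39 to 0.24), and the BD difference minus the NBD one was -0.50 (95% interval -0.94 to -0.05), which did not pass (limma, adjusted p = 0.313).

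Plau (feature 25619_at), the gene of urokinase, separated the BD groups completely. Its values in the 6 BD HVT/LPEEP rats were 9.87, 10.05, 10.18, 10.23, 10.29 and 10.59, against 9.41, 9.49, 9.51, 9.60, 9.65 and 9.79 in the 6 BD LVT/OLPEEP rats. No BD HVT/LPEEP rat fell within the BD LVT/OLPEEP range. The exact permutation test gave p = 0.00216, the smallest that splits of 6 against 6 rats allow. The share of all features that separated the groups completely was not counted, for this or any other comparison. How unusual such a separation is among all features is therefore not known here. The difference was 0.63 (SE 0.17, 95% interval 0.28 to 0.97), or 1.55-fold (limma, adjusted p = 0.0275). The call was lost without BD HVT/LPEEP replicate 37 (adjusted p = 0.0523), 11 (0.0559) or 26 (0.0503) or without BD LVT/OLPEEP replicate 20 (0.0535), and it held in 4 of the 15 pairs left out.

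In NBD the Plau ranges overlapped almost throughout. They ran from 9.31 to 10.16 in NBD HVT/LPEEP and from 9.29 to 10.43 in NBD LVT/OLPEEP, with a difference of 0.05 (95% interval -0.30 to 0.39, limma, adjusted p = 0.916). The highest NBD LVT/OLPEEP value, in replicate 5, was above all but 1 of the 24 rats. Under HVT/LPEEP, BD exceeded NBD by 0.39, which did not pass (SE 0.17, limma, adjusted p = 0.12; adjusted p = 0.0362 with array weights). The BD ventilation difference minus the NBD one was 0.58 (95% interval 0.10 to 1.07), and this did not pass (limma, adjusted p = 0.284).

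Plaur (feature 50692_at), the urokinase receptor gene, also separated the BD groups completely. Its values were 11.65, 11.75, 11.87, 11.93, 11.97 and 12.15 in BD HVT/LPEEP, against 11.01, 11.19, 11.27, 11.44, 11.48 and 11.51 in BD LVT/OLPEEP. The lowest BD HVT/LPEEP rat, replicate 24, was above the highest BD LVT/OLPEEP rat, replicate 18, and the exact permutation test gave p = 0.00216. The difference was 0.57 (SE 0.15, 95% interval 0.26 to 0.88), or 1.48-fold (limma, adjusted p = 0.0258). It no longer passed without BD HVT/LPEEP replicate 11 (adjusted p = 0.0535) or 22 (0.0636) or BD LVT/OLPEEP replicate 20 (0.0704), and it held in 3 of the 15 pairs left out.

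NBD HVT/LPEEP values of Plaur lay between 11.10 and 11.58 except for replicate 12 at 12.15, and NBD LVT/OLPEEP values lay between 10.88 and 11.14 except for replicate 5 at 11.61. With these rats in place the NBD difference was 0.32 (SE 0.15, limma, adjusted p = 0.294). Under HVT/LPEEP, Plaur was higher in BD than in NBD by 0.45 (SE 0.15, limma, adjusted p = 0.0456). That call was near the threshold. It was strongest without NBD HVT/LPEEP replicate 12 (0.59, adjusted p = 0.00224) and was lost in 17 of the 24 fits with 1 rat left out, with an adjusted p up to 0.108 without NBD HVT/LPEEP replicate 33, and it held for 1 pair left out. In a fit of only the 12 arrays compared it did not pass (adjusted p = 0.0984).

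Plat (feature 25692_at), the gene of tissue-type plasminogen activator, had higher means in HVT/LPEEP in both BD and NBD but varied widely between rats. Values ranged from 11.87 to 12.75 in BD HVT/LPEEP with a median of 12.42, from 11.25 to 12.45 in BD LVT/OLPEEP with a median of 11.99, from 11.39 to 12.59 in NBD HVT/LPEEP with a median of 12.23 and from 11.20 to 12.16 in NBD LVT/OLPEEP with a median of 11.74. The groups overlapped in all comparisons. The ventilation difference was 0.41 in BD (SE 0.21, limma, adjusted p = 0.268) and 0.44 in NBD (SE 0.21, limma, adjusted p = 0.3). The BD difference minus the NBD one was -0.03 (95% interval -0.64 to 0.58). With brain damage Plat differed by 0.22 under HVT/LPEEP (limma, adjusted p = 0.542) and by 0.25 under LVT/OLPEEP (adjusted p = 0.678).

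**Figure D2:**
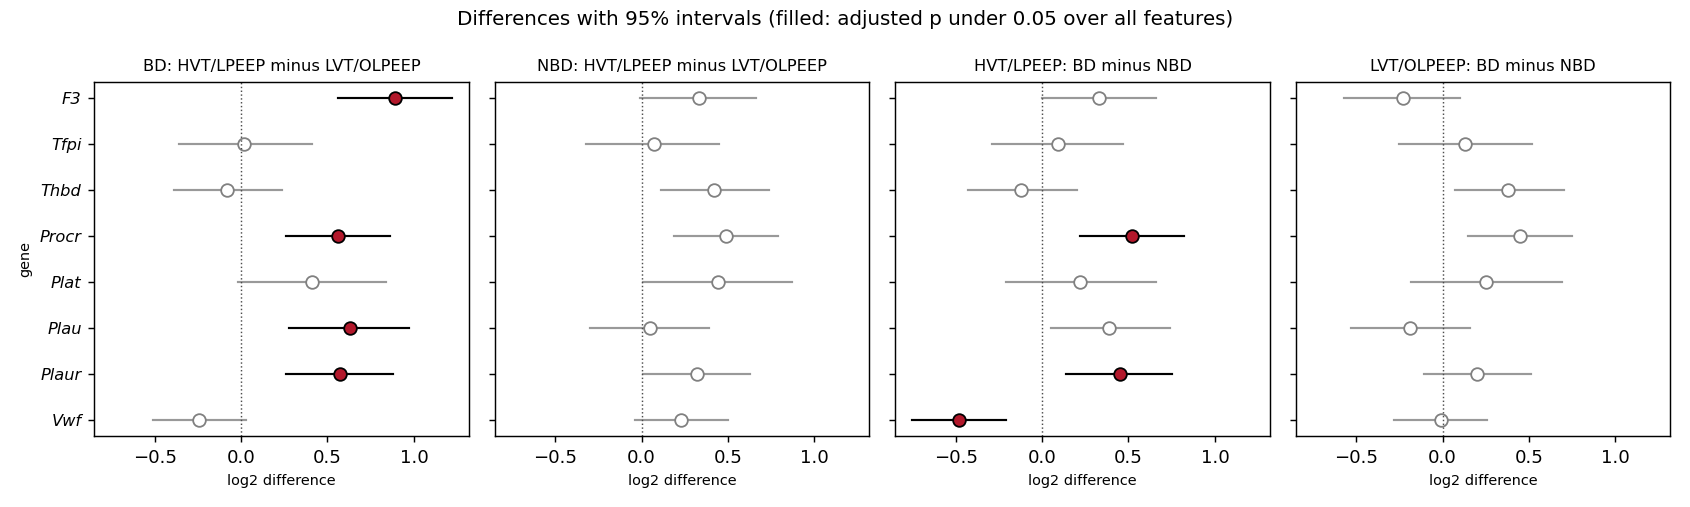
Log2 difference (horizontal axis) of the 8 genes in the 4 comparisons of 2 groups, with 95% intervals and filled points where the adjusted p over all features was under 0.05. F3, Procr, Plau and Plaur pass to the right in BD, and Vwf passes to the left between BD and NBD under HVT/LPEEP at -0.48.

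Vwf (feature 116669_at), which encodes the factor that ties platelets to the vessel wall, was lowest in BD HVT/LPEEP. Its values there were 11.39, 11.52, 11.56, 11.69, 11.97 and 12.15, against 11.92, 12.12, 12.24, 12.24, 12.27 and 12.38 in NBD HVT/LPEEP. Of the 6 BD rats, 4 lay below every NBD rat. The difference was -0.48 (SE 0.13, 95% interval -0.75 to -0.21), or 0.717-fold (limma, adjusted p = 0.0174; exact permutation test, p = 0.0108, not adjusted). The call held without each single rat, with the adjusted p between 0.00441 and 0.0466, and for 9 of the 15 pairs left out from BD HVT/LPEEP.

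Under LVT/OLPEEP, Vwf averaged 11.95 in BD and 11.96 in NBD, a difference of -0.01 (95% interval -0.28 to 0.26). The ventilation difference was -0.24 in BD (limma, adjusted p = 0.312) and 0.23 in NBD (limma, adjusted p = 0.38), and neither passed. The BD difference minus the NBD one was -0.47 (95% interval -0.86 to -0.08, limma, adjusted p = 0.277).

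Markers of endothelial cells, which make Vwf, are given beside it. The 10 measured markers, as deviations of each from its mean across the arrays, averaged from -0.36 to 0.01 over the BD HVT/LPEEP rats, from -0.05 to 0.23 in BD LVT/OLPEEP, from -0.08 to 0.23 in NBD HVT/LPEEP and from -0.31 to 0.27 in NBD LVT/OLPEEP. Between BD and NBD under HVT/LPEEP, 2 of the 10 were lower, Icam2, an adhesion molecule (-0.70, limma, adjusted p = 0.00057), and Ramp2, a partner of the adrenomedullin receptor (-0.81, limma, adjusted p = 0.0046). The other 8 did not pass, and 1 of the 10 differences was above 0. Of all features, 8.5% were lower in this comparison. The part of the endothelial cells in the Vwf difference was not tested.

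Markers of other cells also differed between the groups in which F3, Plau, Plaur and Procr differed. The 8 measured platelet markers averaged from -0.10 to 0.72 in BD HVT/LPEEP, from -0.31 to 0.57 in BD LVT/OLPEEP, from -0.45 to 0.83 in NBD HVT/LPEEP and from -0.56 to -0.34 in NBD LVT/OLPEEP. In BD, 1 of the 8 was higher in HVT/LPEEP, Pf4, which encodes platelet factor 4 (0.43, limma, adjusted p = 0.039). The 8 alveolar type I markers averaged from -0.29 to -0.19 in BD HVT/LPEEP and from -0.01 to 0.17 in BD LVT/OLPEEP, and 2 of the 8 were lower. These groups did not overlap in the type I mean. Of the 7 type II markers 1 was lower, Abca3, a surfactant lipid transporter gene (-0.44, limma, adjusted p = 0.00692), and their means ran from -0.25 to -0.04 in HVT/LPEEP and from -0.15 to 0.14 in LVT/OLPEEP. Of the 10 endothelial markers the same 2 were lower in this comparison too, Ramp2 (-0.64, limma, adjusted p = 0.04) and Icam2 (-0.47, adjusted p = 0.0252). The 9 neutrophil markers averaged from -0.18 to 0.63 in BD HVT/LPEEP and from -0.08 to 0.49 in BD LVT/OLPEEP, and none of them passed in BD. Of the 8 macrophage and monocyte markers none passed in BD, and their means ran from -0.19 to 0.25 in HVT/LPEEP and from -0.29 to -0.05 in LVT/OLPEEP. Under HVT/LPEEP, where Procr and Plaur differed between BD and NBD, 2 of the 9 neutrophil markers were higher in BD, S100a8 (0.97, limma, adjusted p = 0.0246) and S100a9 (0.76, adjusted p = 0.0132), which encode calprotectin. Pf4 was higher by 0.41 there (adjusted p = 0.0253), 4 of the 8 type I markers were lower, and 2 of the 7 type II markers were lower, Abca3 (-0.55, adjusted p = 0.000326) and Sftpb (-0.24, adjusted p = 0.0124). Of the 8 macrophage and monocyte markers, Msr1 (0.68, limma, adjusted p = 0.016) and Fcgr1a (0.55, adjusted p = 0.0288) were higher, and Mrc1 (-0.55, adjusted p = 0.0255) and Csf1r (-0.37, adjusted p = 0.0413) were lower. The neutrophil means of NBD HVT/LPEEP ran from -1.02 to 0.38. These counts of markers stand against 2.85% of all features higher and 2.82% lower with ventilation in BD. Between BD and NBD under HVT/LPEEP, 5.9% of all features were higher and 8.5% were lower. The part of these cells in the differences of the clotting genes was not tested. The tissue label was checked with Sftpc, the surfactant protein C gene of lung, which averaged 14.29 to 14.35 in the 4 groups, near the highest array value of 14.53.

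**Figure D3:**
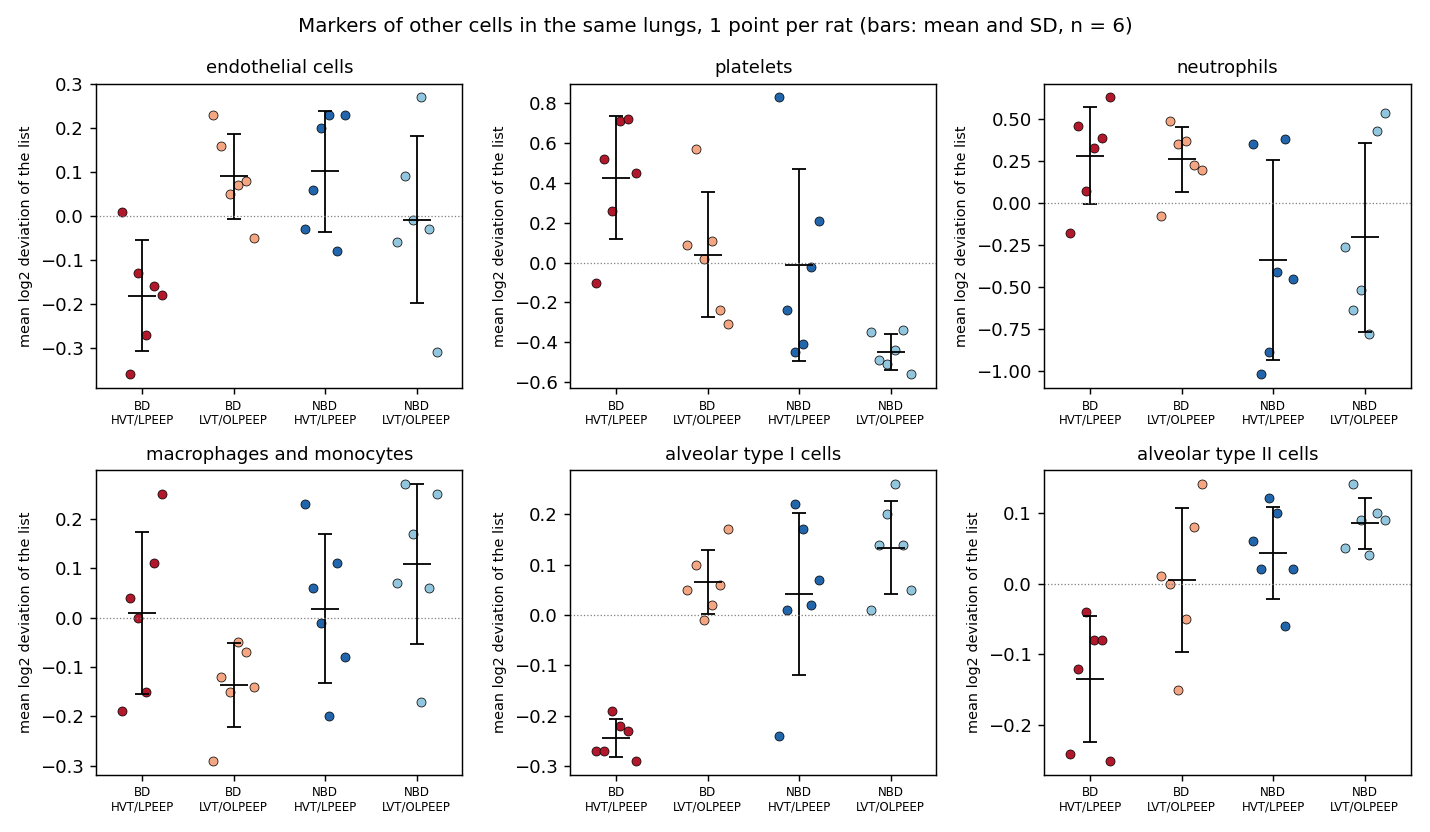
Mean log2 deviation (vertical axis) of 6 lists of cell markers from each marker's mean over all arrays, 1 point per rat, in the 4 groups, with bars for the mean and SD of 6 rats. The type I markers lie between -0.29 and -0.19 in BD HVT/LPEEP, and NBD HVT/LPEEP replicate 12 stands highest for platelets at 0.83.

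Single rats were high or low in several of the 8 genes at once. BD LVT/OLPEEP replicate 18 was the highest of its group in Plau, Plaur and Vwf and the lowest in F3, Plat, Thbd and Tfpi. NBD LVT/OLPEEP replicate 5 was the highest of its group in F3, Plau and Plaur and the lowest in Thbd and Vwf. NBD HVT/LPEEP replicate 12 was the highest of its group in Plau and Plaur and the lowest in F3, Plat and Thbd. BD HVT/LPEEP replicate 24 was the lowest of its group in F3, Plat, Plau and Plaur. Skeletal muscle markers, which a lung sample should hold little of, averaged 3.22 in BD LVT/OLPEEP replicate 16 and at most 0.20 in every other rat. With that rat and NBD HVT/LPEEP replicate 12 both left out, the numbers of passing genes among the 8 stayed at 4 in the BD ventilation comparison and at 3 between BD and NBD under HVT/LPEEP.

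Across the 24 arrays some of the genes varied together. Plaur and Procr had a Pearson correlation of 0.76, F3 and Procr of 0.63, and F3 and Plat of 0.62. Once each group's mean was taken out these were 0.39, 0.44 and 0.50. Procr and Vwf ran against each other at -0.47, and at -0.46 within groups. Of the 28 pairs of genes, 18 correlations were above 0 over all arrays, with a median of 0.19, and 14 were above 0 within groups, with a median of 0.04. The arrays share their groups and normalization, so these are descriptions.

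For the 5 genes that passed a test, the features with 1 gene symbol that followed them most closely over the 24 arrays were also found. Plaur was followed by Itpkc, an inositol trisphosphate kinase gene (r = 0.95), and by Ier5 and Ier2, immediate early response genes (0.92 and 0.91). Procr was followed by Rcan1, a calcineurin regulator gene (0.91), RGD1562416 (0.88) and Rnd1 (0.88). F3 was followed by Ints2, an Integrator subunit gene (0.88), Slc25a32, a mitochondrial carrier gene (0.87), and Pcgf6, a Polycomb gene (0.85). Plau was followed less closely, by Mmp19, a matrix metalloproteinase gene (0.82), Prss22, a serine protease gene, and Areg, the amphiregulin gene (0.74 for both). Vwf was followed by Ece1, an endothelin-converting enzyme gene (0.87), Coro2b (0.87) and Nisch (0.85). Within groups these correlations were 0.55 to 0.91.

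The wider clotting and fibrinolysis pathway was read from 48 measured genes outside the 8. In BD, 6 of 48 were higher and 1 was lower in HVT/LPEEP, with a median difference of 0.03, against 2.85% of all features higher and 2.82% lower. Under HVT/LPEEP, 7 were higher and 5 were lower in BD compared to NBD, with a median of 0.01, against 5.9% and 8.5% of all features. The shorter lists below are parts of the 48, and their counts stand against the same shares. Between the NBD ventilation groups and between BD and NBD under LVT/OLPEEP none of the 48 passed, and in each of these comparisons 8 had an unadjusted p under 0.05. Of all 19239 features, 3127 and 2230 did so, so that the share of the 48 between the NBD ventilation groups was about that of all features.

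Among the inhibitors, Tfpi2, which encodes a serine protease inhibitor related to Tfpi, showed the largest differences of the genes named here. It ranged from 10.27 to 12.57 in BD HVT/LPEEP with a median of 11.46, from 8.42 to 10.49 in BD LVT/OLPEEP with a median of 9.22, and from 8.46 to 10.41 in NBD HVT/LPEEP with a median of 8.69. Of the 6 BD HVT/LPEEP rats, 5 lay above every rat of each of the other 2 groups. It was higher by 2.13 with ventilation in BD (SE 0.40, 4.38-fold, limma, adjusted p = 0.00467) and by 2.35 in BD compared to NBD under HVT/LPEEP (SE 0.40, 5.09-fold, limma, adjusted p = 0.000437). Tfpi itself differed by 0.02 and 0.09 in the same comparisons. Gas6, a vitamin K-dependent ligand of the TAM receptors, is not a clotting inhibitor but was held in the same list. Gas6 was lower under HVT/LPEEP than under LVT/OLPEEP in BD (-0.75, limma, adjusted p = 0.00527). It was also lower in BD compared to NBD under HVT/LPEEP (-0.58, limma, adjusted p = 0.009). Serpind1, the gene of heparin cofactor II, was lower in BD than in NBD under HVT/LPEEP (-0.28, limma, adjusted p = 0.011). Its group means lay between 8.27 and 8.59, below the median array value of 9.18. With 2 BD HVT/LPEEP rats left out, the Serpind1 call held in 8 of the 15 pairs. Both Tfpi2 calls held in all 15, and those of Gas6 held in 15 with ventilation in BD and in 12 with brain damage. Under LVT/OLPEEP the BD mean minus the NBD mean was -0.27 for Serpind1, 0.80 for Tfpi2 and 0.23 for Gas6. None of these passed (limma, adjusted p = 0.0977, 0.446 and 0.55). Of the 10 genes of this list, with Gas6 among them, 1 was higher and 1 (Gas6) lower with ventilation in BD. With brain damage under HVT/LPEEP, 1 was higher and 2 were lower.

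A list of 17 genes held clotting factors, fibrinogen and 2 enzymes of vitamin K, Vkorc1 and Ggcx. Of these 17, 1 was higher with ventilation in BD, and 3 were higher and 2 lower in BD compared to NBD under HVT/LPEEP. The 3 higher were clotting factor and fibrinogen genes, and the 2 lower were those of the vitamin K enzymes. Of all features, 2.85% were higher in the first comparison, and 5.9% were higher and 8.5% lower in the second. F10, the gene of factor X, which tissue factor and factor VII activate, was higher by 0.95 with ventilation in BD (SE 0.22, limma, adjusted p = 0.0161) and by 0.86 with brain damage under HVT/LPEEP (SE 0.22, limma, adjusted p = 0.0126). The BD HVT/LPEEP rats spread from 8.44 to 10.23, against 8.10 to 8.49 in BD LVT/OLPEEP and 8.12 to 8.66 in NBD HVT/LPEEP. In fits of only the 12 arrays compared, neither passed (adjusted p = 0.051 and 0.0515). Vkorc1 and Ggcx, whose enzymes recycle vitamin K and use it to modify clotting factors, were both lower in BD than in NBD under HVT/LPEEP, with differences of -0.53 (limma, adjusted p = 0.000798) and -0.38 (limma, adjusted p = 0.00979). For Vkorc1 all 6 BD rats lay below all 6 NBD rats. The Vkorc1 call held in all 15 pairs left out and the Ggcx call in 12. Under LVT/OLPEEP the differences were -0.21 for Vkorc1 and -0.26 for Ggcx, and neither passed (limma, adjusted p = 0.394 and 0.253). For Ggcx all 6 BD rats lay below all 6 NBD rats there. The liver makes most of the clotting factors of the blood, and these values are of lung RNA.

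Plasmin formation was represented by 10 further genes, of which 1 was higher with ventilation in BD, and 1 was higher and 1 lower with brain damage under HVT/LPEEP. S100a10, whose product forms a plasminogen receptor with annexin A2, was higher by 0.29 (limma, adjusted p = 0.0243) and 0.36 (limma, adjusted p = 0.0026) in these comparisons. The first of these was lost without BD HVT/LPEEP replicate 22 (adjusted p = 0.0615) or BD LVT/OLPEEP replicate 20 (0.052), 18 (0.0639) or 9 (0.0565). Mrc2, whose product, uPARAP, forms a complex with urokinase and its receptor, was lower in BD under HVT/LPEEP (-0.53, limma, adjusted p = 0.00482), with all 6 BD rats below all 6 NBD rats. The Mrc2 call held in all 15 pairs.

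Of 3 measured thrombin and protease receptor genes, F2rl1, which encodes a protease-activated receptor that tissue factor complexes can cleave, was higher with ventilation in BD by 0.56 (SE 0.11, limma, adjusted p = 0.00678). All 6 BD HVT/LPEEP rats lay above all 6 BD LVT/OLPEEP rats, and with brain damage under HVT/LPEEP the difference was 0.03. With ventilation in NBD, F2rl1 differed by 0.38, which did not pass (limma, adjusted p = 0.253). Among 8 genes linked to Vwf and the thrombospondins, 2 were higher with ventilation in BD and 2 with brain damage under HVT/LPEEP. Adamts1, a protease of the same family as the one that cuts Vwf, was higher by 0.60 with ventilation in BD (limma, adjusted p = 0.00549) and by 0.61 with brain damage under HVT/LPEEP (limma, adjusted p = 0.00117). Its difference was 0.47 with ventilation in NBD and also 0.47 with brain damage under LVT/OLPEEP. Neither passed (limma, adjusted p = 0.253 and 0.0561). Thbs2, the gene of thrombospondin 2, was higher with ventilation in BD (0.55, limma, adjusted p = 0.0281). That call was lost without BD HVT/LPEEP replicate 24 or 22 or BD LVT/OLPEEP replicate 20, 18, 14 or 7, with an adjusted p from 0.0514 to 0.0689. With 2 BD HVT/LPEEP rats left out, it held in 4 of the 15 pairs. The F2rl1 call held in 14 of these pairs, and both Adamts1 calls held in all 15.

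Selp, the gene of P-selectin, which is stored together with Vwf in endothelial cells and platelets, went the other way from Vwf. It ranged from 11.45 to 12.41 in BD HVT/LPEEP with a median of 11.98, against 9.18 to 11.59 with a median of 10.03 in NBD HVT/LPEEP. The difference was 1.66 (SE 0.48, limma, adjusted p = 0.0237). It no longer passed without NBD HVT/LPEEP replicate 34 (adjusted p = 0.0582), 33 (0.0597) or 19 (0.0513) or BD HVT/LPEEP replicate 11 (0.0511). In BD the ventilation groups did not overlap for Selp, but the difference of 0.90 did not pass (SE 0.48, limma, adjusted p = 0.298; exact permutation test, p = 0.00216, not adjusted). The limma SE draws on all 4 groups, and the SD of Selp was 0.37 and 0.51 in the BD groups. In NBD it was 0.97 under HVT/LPEEP and 1.33 under LVT/OLPEEP. NBD LVT/OLPEEP values ranged from 9.20 to 12.53, and replicate 5 at 12.53 lay above every BD HVT/LPEEP rat.

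**Figure D4:**
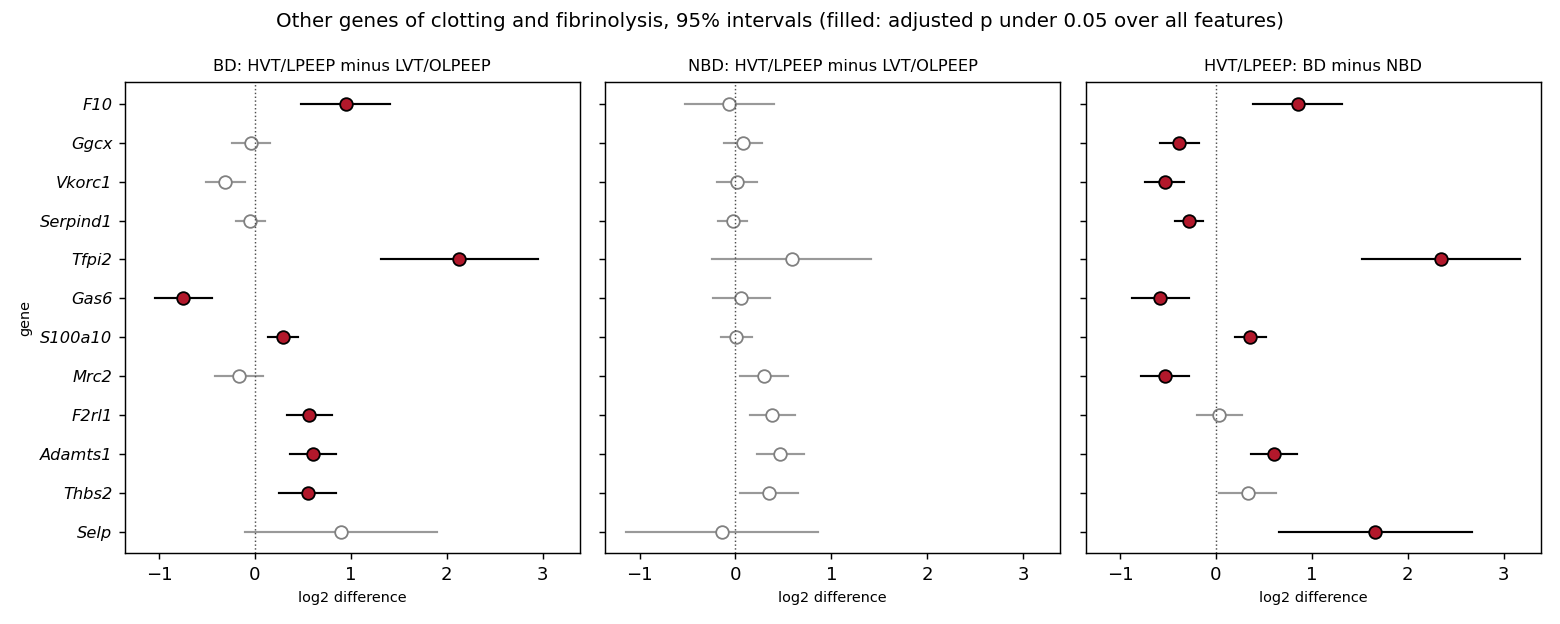
Log2 difference (horizontal axis) of 12 other genes of clotting and fibrinolysis in 3 comparisons, with 95% intervals and filled points where the adjusted p over all features was under 0.05. Tfpi2 lies farthest to the right, at 2.13 and 2.35, and no gene passes between the NBD ventilation groups.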

How the data were processed

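The deposited log2 values were used unchanged. For the steps by which the authors corrected background and combined probes, the sources used here give no details. Every array holds the same set of values in another order, which quantile normalization produces. Genes were matched by the symbols of the platform annotation, and the identifiers of the 8 genes matched current RefSeq entries. With R 4.3.3 and limma 3.58.1, a mean of each group was fitted to each feature over all 24 arrays (20 residual degrees of freedom), with two-sided p-values and Benjamini-Hochberg adjustment across 19239 features. The methods of the study name a mixed-model ANOVA with Holm's correction, whose terms could not be rebuilt, and Holm's correction was run beside the main one. The fit was first tested on simulated data with known changes. Exact permutation tests used every split of 6 against 6 rats and were not adjusted. The genes and lists were chosen with earlier results of these data known. Named genes of a list are up to 3 with the smallest adjusted p among those that pass in any comparison. For the 5 passing genes, the 3 features with the highest Pearson correlation are named. The labels give each array its own replicate number, which was read here as the number of a separate animal. No signal over background is known, and the number of rats limits the precision. Alternatives were a trended and robust fit, array weights, only the arrays compared, no dim features, another centring, Holm's correction, animal number as a covariate, and leaving out single rats, the pairs of BD HVT/LPEEP rats, or BD LVT/OLPEEP replicate 16 and NBD HVT/LPEEP replicate 12 together. For the other coagulation genes named, the gene-by-gene runs of these alternatives were added after seeing the data.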

Additional observations from a re-analysis of the deposited data

Results flagged for a closer look

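In 2 of 32 sets of 6 rats, 1 rat lay far from the others by Dixon's criterion, which chance meets in about 1 in 20 sets. Plaur was 11.61 in NBD LVT/OLPEEP replicate 5, and the next rat of that group was at 11.14. Without that rat the NBD ventilation difference of Plaur was 0.42, compared to 0.32 with it, and did not pass (limma, adjusted p = 0.175). Thbd was 10.63 in NBD HVT/LPEEP replicate 12, and the next rat of that group was at 11.10.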

How the results depend on the processing

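No paired analysis was possible because no 2 groups share a replicate number and the labels name no pairs. With Holm's correction the numbers of passing genes fell to 0 among the 8 genes and to 0 among the 48 others, both with ventilation in BD and with brain damage under HVT/LPEEP. With 1 rat left out, the 8 genes gave 1 to 4 with ventilation in BD (1 without BD LVT/OLPEEP replicate 20, and 2 without BD HVT/LPEEP replicate 11, 26 or 22) and 1 to 3 with brain damage under HVT/LPEEP (1 without BD HVT/LPEEP replicate 26). The 48 others gave 5 to 11 with ventilation in BD (11 without NBD HVT/LPEEP replicate 12), 10 to 15 with brain damage under HVT/LPEEP and 0 to 2 under LVT/OLPEEP (2 without NBD LVT/OLPEEP replicate 5). With 2 BD HVT/LPEEP rats left out, the lowest counts of the 8 genes were 1 and 0, those of the 48 others were 4 and 6, and the highest count of the 48 for the difference of ventilation effects was 1. Array weights gave 1 of the 8 (Procr) and 3 of the 48 with brain damage under LVT/OLPEEP, and 1 of the 48 passed there without the dimmest features. Animal number as a covariate gave 11 of the 48 with ventilation in BD and 1 for the difference of ventilation effects. Some differences near 0 changed sign. With array weights, Plau with ventilation in NBD was -0.01, Tfpi with ventilation in BD was -0.11 and Tfpi with brain damage under HVT/LPEEP was -0.06. Without BD LVT/OLPEEP replicate 16 and NBD HVT/LPEEP replicate 12, Plau in NBD was -0.02, Tfpi in BD was 0 and Vwf with brain damage under LVT/OLPEEP was 0.06, and with animal number as a covariate that Vwf difference was 0.04. With 1 rat left out, the differences with ventilation in BD ranged from -0.17 to 0.04 for Thbd and from -0.09 to 0.15 for Tfpi, and those in NBD from -0.05 to 0.18 for Plau and from -0.05 to 0.15 for Tfpi. Those with brain damage under HVT/LPEEP ranged from -0.22 to 0 for Thbd and from -0.02 to 0.20 for Tfpi, and under LVT/OLPEEP from -0.07 to 0.06 for Vwf. The differences of ventilation effects ranged from -0.18 to 0.07 for Plat, from -0.01 to 0.15 for Procr and from -0.16 to 0.08 for Tfpi. None of these passed a test. The causes of these changes were not tested.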
